A study of Mus musculus with 2 samples.

Results

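Wdfy1 and 3 genes that lie beside it on mouse chromosome 1, Ap1s3, Mrpl44 and Serpine2, are described here in macrophages with and without legumain. Wdfy1 was selected on the ratio of its RNA between the 2 libraries and the others were chosen by their place beside it, so the ratio of Wdfy1 is a description. They are 4 of the 15605 genes listed in either library. All 4 were listed in both. The cells were peritoneal macrophages, phagocytes of the abdominal cavity, from C57BL/6 mice 6 to 8 weeks old that were wild type or lgmn-/-, the latter lacking the lysosomal cysteine protease legumain. Both groups had shared their culture with EO771, a mammary carcinoma line of the mouse, over 4 days. With 1 library in each group, the differences could not be set against replicate error, and there are no p-values. The number of mice behind each library, the exons deleted from Lgmn and the C57BL/6 substrain of either genotype are not stated in the labels. In such bulk RNA, fewer cells of a type and less RNA per cell cannot be told apart.

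Wdfy1 encodes a protein with a FYVE finger, a zinc-binding fold that attaches to phosphatidylinositol 3-phosphate on early endosomes, and with WD40 repeats. It has been described as an adaptor that helps TLR3 and TLR4 recruit TRIF, the signalling protein that links these innate receptors to interferon and inflammatory genes. Ap1s3 encodes a small sigma subunit of AP-1, the clathrin adaptor that sorts cargo between the trans-Golgi network and endosomes. Mrpl44 encodes a protein of the large subunit of the mitochondrial ribosome. Serpine2 encodes protease nexin-1, a secreted serpin that inhibits thrombin, urokinase and plasmin.

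In GRCm38, the assembly also called mm10, the 4 genes span 252 kb of chromosome 1. RefSeq places Ap1s3 (Entrez gene 252903) at 79606869 to 79672018, Wdfy1 (69368) at 79702262 to 79776143, Mrpl44 (69163) at 79776018 to 79781445 and Serpine2 (20720) at 79794317 to 79858665. Mrpl44 is read from the forward strand and the other 3 genes from the reverse strand. The annotated spans of Wdfy1 and Mrpl44 overlap by 126 bases. The Wdfy1 transcripts that the deposited files count start 14.2 kb away from the start of Mrpl44 in GENCODE M21, so this overlap belongs to another annotated Wdfy1 transcript.

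The files count 2 Wdfy1 transcripts, and the sequences where these part show what distinguishes them. Both start at the same base and share 554 bases, which end in exon 5. In GENCODE M21 the long transcript has 12 exons and 4551 bases, of which 1230 are coding. The short transcript runs on past the splice site of exon 5 and ends within the following intron, with 5 exons, 717 bases and 561 coding bases. Each line below gives the last 60 shared bases in lower case (chr1:79726566-79726625, reverse strand) and the next 60 bases of that transcript in capitals, all of them coding. The capitals of the long transcript come from exon 6 (chr1:79724698-79724757) and those of the short transcript from the run-on part of exon 5 (chr1:79726506-79726565).
Wdfy1 long transcript: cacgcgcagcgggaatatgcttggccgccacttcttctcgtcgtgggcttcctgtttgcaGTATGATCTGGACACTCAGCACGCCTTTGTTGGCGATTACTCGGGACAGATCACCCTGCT
Wdfy1 short transcript: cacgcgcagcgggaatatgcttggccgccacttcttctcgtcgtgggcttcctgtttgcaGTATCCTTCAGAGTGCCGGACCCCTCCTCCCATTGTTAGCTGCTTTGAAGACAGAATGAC
The first capitals are the same in both lines although they come from different places, so the sequences are identical over 558 bases. Beyond the branch the long transcript has 3997 bases of its own and the short transcript 163, so the short transcript can be recognised only over that stretch.

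The libraries held 11885784 estimated counts in wild type and 11740202 in knockout, over 14681 and 14756 listed genes. Lgmn itself was 64.4-fold lower in the knockout library (58.6 to 71.1), at 426 counts against 23550. Here and below a fold is the ratio of counts scaled between libraries with TMM factors, and the interval in brackets is its 95% exact Clopper-Pearson interval, which covers counting error only. A log2 ratio is knockout over wild type after adding 1 scaled count to both. Genes that reached 50 estimated counts in either library, here called tested for size, numbered 9498. Of these, 575 were at least 2-fold higher in the knockout library, or 6.05%, and 165 at least 2-fold lower, or 1.74%. Scaling by library totals shifted the median log2 ratio of these genes from 0.00 to 0.24 and gave 1036 higher and 107 lower. Ratios also went up with transcript length, from a median of -0.37 in the tenth of genes with the shortest transcripts to 0.77 in that with the longest, so values with this trend subtracted are given as length-adjusted.

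Wdfy1 was the member with the large difference, and its neighbours on either side differed by less than 2-fold. Of the 4 genes, 3 had enough counts to be tested for size, 1 of these was at least 2-fold higher and 0 were at least 2-fold lower, beside 6.05% and 1.74% of all genes tested, or 7.79% in either direction. The length-adjusted counts of members were the same, beside 2.14% and 1.9% of all genes. Since Wdfy1 was chosen for its ratio, nothing is read from that count. Serpine2, with too few counts, was not tested for size.

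Levels per transcript length, as deposited FPKM, put Wdfy1 well below Mrpl44 in wild type and level with it in knockout. In the wild type library Mrpl44 stood highest at 16.6 FPKM, with a 95% Poisson interval of its count giving 14.7 to 18.7. Wdfy1 followed at 3.53 FPKM (2.87 to 4.30), 4.71-fold below Mrpl44. Ap1s3 had 1.11 FPKM (0.789 to 1.52) and Serpine2 0.88 FPKM (0.551 to 1.33), whose intervals overlapped. In the knockout library Wdfy1 had 15.2 FPKM (14.03 to 16.4) and Mrpl44 14.8 FPKM (13.0 to 16.8), which cannot be ordered by these intervals. Ap1s3 had 1.65 FPKM (1.2497 to 2.14) and Serpine2 0.61 FPKM (0.341 to 1.01) there, and these intervals did not overlap. Wdfy1 went from percentile 56.3 to percentile 77.3 of the listed genes by FPKM, while Mrpl44 was at 80.0 and 77.0, Ap1s3 at 37.5 and 38.5, and Serpine2 at 34.2 and 26.4.

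**Figure D1:**
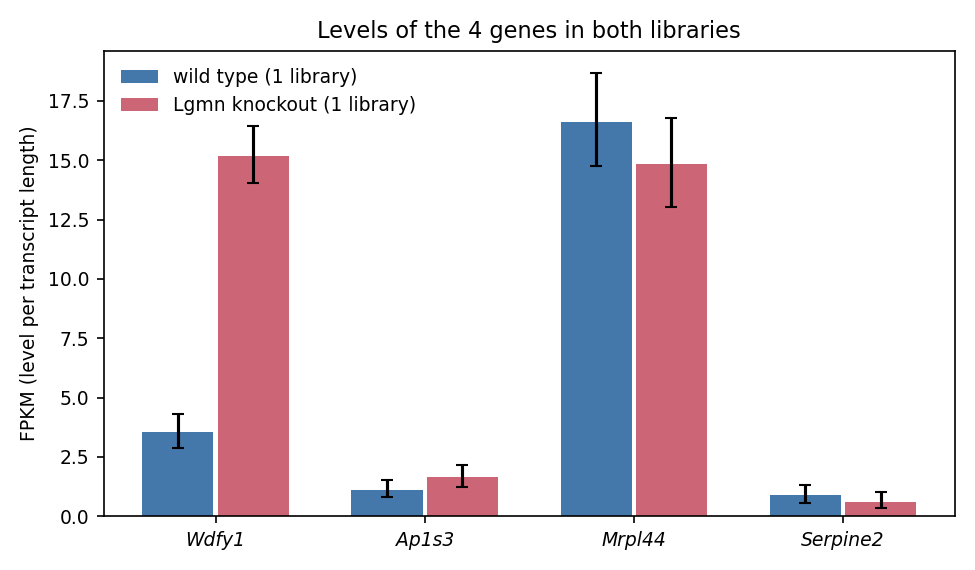
FPKM, the level per transcript length, of the 4 genes (horizontal axis) in the single wild type library (blue) and the single Lgmn knockout library (red), with 95% Poisson intervals of the counts as error bars. The Wdfy1 bar is 3.53 in wild type and 15.2 in knockout, level with Mrpl44 at 14.8, while the intervals of the 2 libraries overlap for each of the other 3 genes.

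Wdfy1 had 99.5 estimated counts in wild type and 632 in knockout. That is 5.48-fold higher in the knockout library (4.42 to 6.84), a log2 ratio of 2.44. The length-adjusted log2 ratio was 2.42, since the trend was near 0 at the mean length of this gene. That mean lies between the lengths of its 2 transcripts. With the trend taken at the long transcript, a setting chosen after seeing the data, the value was 2.11. Among the 9498 genes tested Wdfy1 ranked 16 from the top by log2 ratio and 15 after length adjustment at the mean length. Among the 545 tested genes of chromosome 1 it ranked 2 by either value. Scaled by library totals the ratio of counts was 6.46 (5.22 to 8.07). By deposited FPKM, which also divides by a mean transcript length that differed between the files, the ratio was 4.30.

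**Figure D2:**
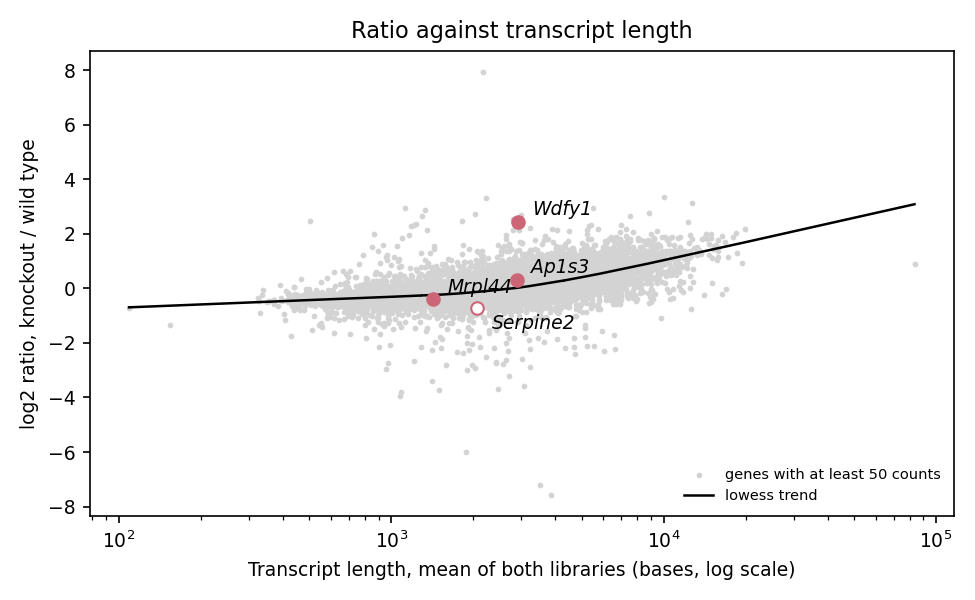
Log2 ratio of knockout over wild type (vertical axis) against mean transcript length in bases (horizontal axis, log scale) for 9498 genes with at least 50 counts (grey), with the lowess trend (line) and the 4 genes in red, Serpine2 open because it had fewer counts. Wdfy1 stands at 2.44 where the trend is near 0, and Ap1s3, Mrpl44 and Serpine2 lie at 0.32, -0.40 and -0.73.

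The make-up of Wdfy1 RNA also differed. The deposited length of a gene with several transcripts is a mean over them, and for Wdfy1 it was 2341 bases in wild type and 3486 in knockout, 1.49-fold longer. Effective lengths are not a column of the files, but the FPKM values of single-transcript genes followed length less 36.5 bases in both libraries. The counts and FPKM of Wdfy1 then implied effective lengths of 2304 and 3450 bases, equal to the deposited lengths less that number. For 2941 genes with several transcripts and at least 50 counts in both libraries, the median log2 ratio of lengths was 0 and the central 95% ran from -0.06 to 0.12. Wdfy1, at 0.57, ranked 5 from the longer end.

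With the GENCODE lengths of its transcripts, the mean lengths correspond to a long share of 42.4% of Wdfy1 molecules in wild type and 72.2% in knockout. The long transcript then had 1.495 FPKM in wild type and 10.97 in knockout, and the short transcript 2.03 and 4.22. In counts, the long transcript had about 83 and 597, 6.17-fold higher in the knockout library (4.90 to 7.86). The short transcript had about 17 and 35 counts, 1.77-fold higher with an interval of 0.963 to 3.36, which includes 1. The counts of both transcripts were calculated from the mean lengths, and their intervals leave out the error of that split. These shares rest on an estimated split. GENCODE gave the deposited length within 5% for 71.5% of single-transcript genes, and with both lengths moved by up to 20% the long share ran from 32.2% to 57.6% in wild type and from 57.1% to 94.96% in knockout. The long share stayed 23.4 to 41.2 percentage points higher in knockout over those settings. The folds of the long and short transcript are not length-adjusted. Over all genes tested, the median log2 ratio was -0.37 in the tenth with lengths of 109 to 1083 bases. It was 0.27 in the tenth of 3813 to 4558 bases. The part of this trend in the split was not tested.

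**Figure D3:**
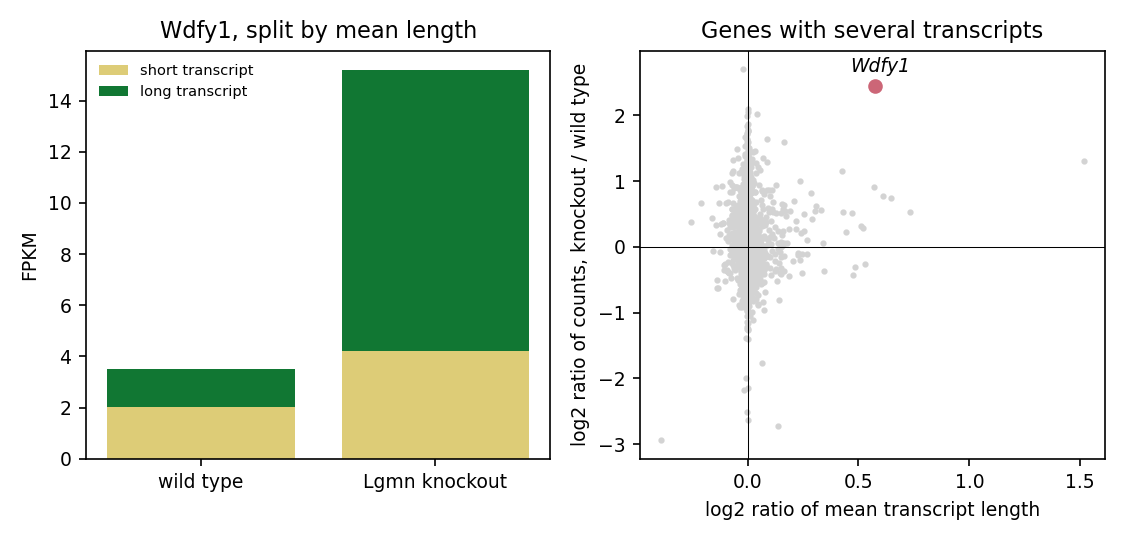
Left, FPKM of Wdfy1 in each library (1 each) split into the short (yellow) and long (green) transcript by the mean length in each file. Right, log2 ratio of counts (vertical axis) against log2 ratio of mean transcript length (horizontal axis), both knockout over wild type, for 2941 genes with several transcripts, Wdfy1 in red at 2.44 and 0.57. The long part of the bar goes from 1.495 to 10.97 FPKM and the short part from 2.03 to 4.22.

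Mrpl44, whose start lies nearest to those of the Wdfy1 transcripts, had 282 counts in wild type and 248 in knockout. With TMM factors this was 1.33-fold lower in knockout (1.11 to 1.58). With library totals it was 1.12-fold lower with an interval of 0.944 to 1.34, so whether it differed beyond counting error depended on the scaling. The log2 ratio of -0.40 moved to -0.16 when length-adjusted. With matches on either strand counted, 5.60% of its 50-base stretches are shared with another gene. That gene is Wdfy1, through the overlapping transcript that the files do not count. How strand was handled in counting is not stated, and reads of the 2 genes in that overlap cannot be told apart.

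Ap1s3 did not differ beyond counting error. It had 38.6 counts in wild type and 56.9 in knockout, 1.254-fold higher with an interval of 0.820 to 1.94, and log2 ratios of 0.32 and 0.30 before and after length adjustment. The counts are not whole because reads that match several genes are divided by an estimate. In GENCODE, matches of 50-base stretches to transcripts of other genes, on either strand, came to 22.1% of the stretches of the Ap1s3 transcript. The values were 0.622% for the long Wdfy1 transcript, 0 for the short one and 0 for Serpine2. A stretch found in both orientations was counted once for each, so the values above 0 can be too high.

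Serpine2 was at the edge of detection. It had 22 counts in wild type and 15 in knockout, 1.71-fold lower with an interval of 0.848 to 3.54, so a difference was not detectable at this depth. On the log2 scale this was -0.73, or -0.60 when length-adjusted.

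The wider neighbourhood of Wdfy1 did not share its ratio. Within 5 Mb on either side, 23 other genes were tested, of which 2 were at least 2-fold higher, 1 at least 2-fold lower and 20 lay between. Their median log2 ratio was 0.08, beside 0.04 for the 519 tested genes of chromosome 1 further away and 0.00 for all genes tested. After length adjustment the medians were 0.01, -0.06 and -0.01. No p-value stands behind these medians, and that of the 5 Mb window was -0.07 when a gene needed 200 counts.

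The 3 other genes tested within 2 Mb were all less than 2-fold different. Farsb, a subunit of phenylalanine tRNA synthetase that starts 1.28 Mb away, had 537 and 534 counts, 1.17-fold lower (1.04 to 1.32). Cul3, the scaffold of a ubiquitin ligase family, had 458 and 618 counts, 1.16-fold higher (1.02 to 1.31). Dock10, an activator of small GTPases, had 415 and 876 counts, 1.81-fold higher (1.61 to 2.04). The length-adjusted log2 ratios of these 3 genes were -0.10, -0.19 and 0.11. The 2 of 23 higher and 1 of 23 lower in the 5 Mb window, beside 6.05% and 1.74% of all genes, lay over 4 Mb away. They were Chpf, which makes chondroitin chains, at 29 and 79 counts and 2.34-fold higher (1.51 to 3.71), Stk11ip, which binds the kinase LKB1, at 57 and 152 counts and 2.29-fold higher (1.68 to 3.16), and Des, the muscle filament desmin, at 203 and 19 counts and 12.5-fold lower (7.77 to 21.1). After length adjustment 1 of the 23 was past 2-fold higher and 2 lower, beside 2.14% and 1.9% of all genes tested. Chpf at 1.14 and Des at -3.62 stayed past 2-fold, and Stk11ip at 0.86 did not. Agfg1, which lies 3.14 Mb away, came to -1.06 against -0.25 before adjustment.

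**Figure D4:**
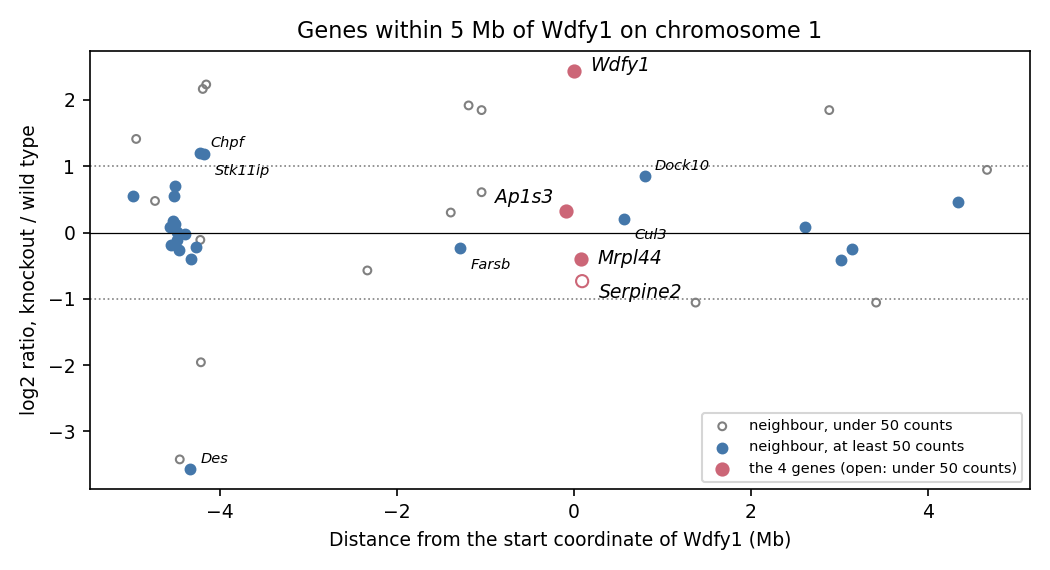
Log2 ratio of knockout over wild type (vertical axis) against distance from the start coordinate of Wdfy1 in Mb (horizontal axis) for genes listed within 5 Mb, with the 4 genes in red, other genes in blue and genes under 50 counts open. Dotted lines mark 2-fold. Wdfy1 stands at 2.44, and the 3 nearest tested genes besides the members, Farsb, Cul3 and Dock10, lie at -0.23, 0.21 and 0.86.

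Genes of other proteins with FYVE fingers, and Wdfy4, which has none and entered the list by its name, were compared with Wdfy1. Of 24 tested, 3 passed 2-fold upward and 0 downward, beside 6.05% and 1.74% of all genes tested. Their median log2 ratio was 0.48, which became -0.04 after length adjustment. The 3 were Wdfy3 and Wdfy4, large proteins with BEACH domains, and Zfyve26, also known as spastizin. Wdfy3 was 4.06-fold higher (2.92 to 5.75), Wdfy4 2.93-fold (2.23 to 3.89) and Zfyve26 2.71-fold (2.03 to 3.66). These 3 transcripts are 9368 to 14277 bases long, and with the length trend subtracted their log2 ratios were 0.63, 0.54 and 0.45. After this adjustment 0 of 24 passed 2-fold, beside 2.14% higher and 1.9% lower among all genes tested. Without Wdfy4, 2 of 23 passed 2-fold upward, with medians of 0.47 and -0.05 before and after adjustment. Wdfy2, a close relative of Wdfy1, had 3.27 FPKM in wild type and 5.88 in knockout, 1.52-fold higher (1.15 to 2.03), with a length-adjusted log2 ratio of 0.74, the highest in the list. Wdfy1 lay above all 24 with and without adjustment, but it was chosen for its ratio, so nothing is read from that place. Of 18 genes of the phosphatidylinositol 3-kinase and early endosome machinery, 0 passed 2-fold in either direction, beside 7.79% of all genes tested. The median of these 18 was 0.01.

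Genes of the pathway in which Wdfy1 has been placed differed less than Wdfy1, which was itself chosen for its ratio. Of 24 tested genes of TLR3, TLR4 and TRIF signalling, 0 passed 2-fold either way, beside 7.79% of all genes tested. Their median was 0.28, and 0.09 when length-adjusted. Scaling by library totals put 2 of the 24 past 2-fold upward, beside 1036 of all 9498 genes tested. The receptor Tlr3 had 165 and 306 counts, 1.59-fold higher (1.31 to 1.93), and Tlr4 had 514 and 1052, 1.76-fold higher (1.58 to 1.95). Their length-adjusted log2 ratios were 0.38 and 0.00. Ticam1, which encodes TRIF, had 373 and 321 counts, 1.35-fold lower (1.16 to 1.58), and Ifnb1, the interferon beta gene, had 1 count in each library.

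Ap1s3 was the least abundant of the 3 AP-1 sigma subunits. Ap1s1 made up 90.9% of their summed FPKM in wild type and 86.2% in knockout, Ap1s2 7.69% and 11.7%, and Ap1s3 1.43% and 2.10%. Of 9 other AP-1 genes tested, 0 passed 2-fold, beside 7.79% of all genes tested in either direction. Their median log2 ratio was 0.10, or -0.09 after length adjustment. Ap1s1 had 1068 and 1012 counts, 1.23-fold lower (1.13 to 1.34), and Ap1s2 197 and 297, 1.29-fold higher (1.08 to 1.56). None of 11 AP-2 and AP-3 genes passed 2-fold, beside the same 7.79% of all genes, and their median was 0.01.

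Mrpl44 lay among the genes of its ribosomal subunit. Of 48 other genes of the mitochondrial large subunit, 0 passed 2-fold, beside 7.79% of all genes tested. A log2 ratio below 0 was found for 47 of them, while 4743 of all 9498 genes tested lay above 0. The median of the 48 was -0.32, or -0.04 after length adjustment. After that adjustment 1 gene, Mrpl17, was past 2-fold lower, beside 1.9% of all genes. Under scaling by library totals the median of the 48 was -0.08. Mrpl44 had 17 of the 48 below it and 31 above. Its FPKM was above those of 10 genes of the list in wild type and 9 in knockout, where the list medians were 41.4 and 38.1 FPKM. The 29 genes of the small subunit had a median of -0.26, and 0 passed 2-fold, beside the same 7.79% of all genes tested.

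With TMM factors, the 11 tested genes of a chosen list of other serpins were lower in the knockout library, 6 of them by more than 2-fold. Of 11 tested, 6 were past 2-fold lower and 0 past 2-fold higher, beside 1.74% and 6.05% of all genes tested. The median log2 ratio was -1.11, and length adjustment made it -0.95 with 5 past 2-fold lower, beside 1.9% of all genes. Under scaling by library totals 3 of the 11 were at least 2-fold lower, beside 107 of all 9498 genes tested. Serpinh1, the collagen chaperone Hsp47, was 5.71-fold lower (4.69 to 7.01) and Serping1, the C1 inhibitor, 5.37-fold lower (3.40 to 8.84). Serpinb2, Serpinb1a and Serpinb9b, intracellular serpins, were 2.33-fold, 2.28-fold and 2.17-fold lower. Serpinb1a and Serpinb9b have close copies, among which their reads may be divided.

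Most fibroblast and mural cell markers were lower as well. Of 12 such genes, all were listed in both libraries, with summed FPKM of 98.3 in wild type and 33.4 in knockout. Of these, 9 were tested, with a median log2 ratio of -1.99, and 7 were at least 2-fold lower and 0 higher. Over all genes tested the shares were 1.74% and 6.05%. The collagen genes Col1a2 and Col3a1 had 314 and 83 counts, and 66 and 17 counts. Thy1, which lymphocytes also express, had 140 and 198 counts, 1.21-fold higher with an interval of 0.972 to 1.52. Pdgfrb and Lum had at most 2 counts in either library. Serpine2, at -0.73, lay above 7 of the 9 marker genes tested. The part of such cells in the serpin values was not tested.

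Proteases and receptors that Serpine2 can meet mostly lay within 2-fold. Of 11 tested, 1 was past 2-fold higher and 0 past 2-fold lower, beside 6.05% and 1.74% of all genes tested. Their median was -0.32. None passed 2-fold after length adjustment, beside 2.14% higher and 1.9% lower among all genes tested. The gene past 2-fold was Lrp1, a clearance receptor for serpin and protease complexes with a transcript of 14907 bases, at 570 and 2642 counts, whose log2 ratio of 1.99 was 0.58 when adjusted. Plau, which encodes urokinase, had 2155 and 1569 counts, 1.60-fold lower (1.4995 to 1.71).

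**Figure D5:**
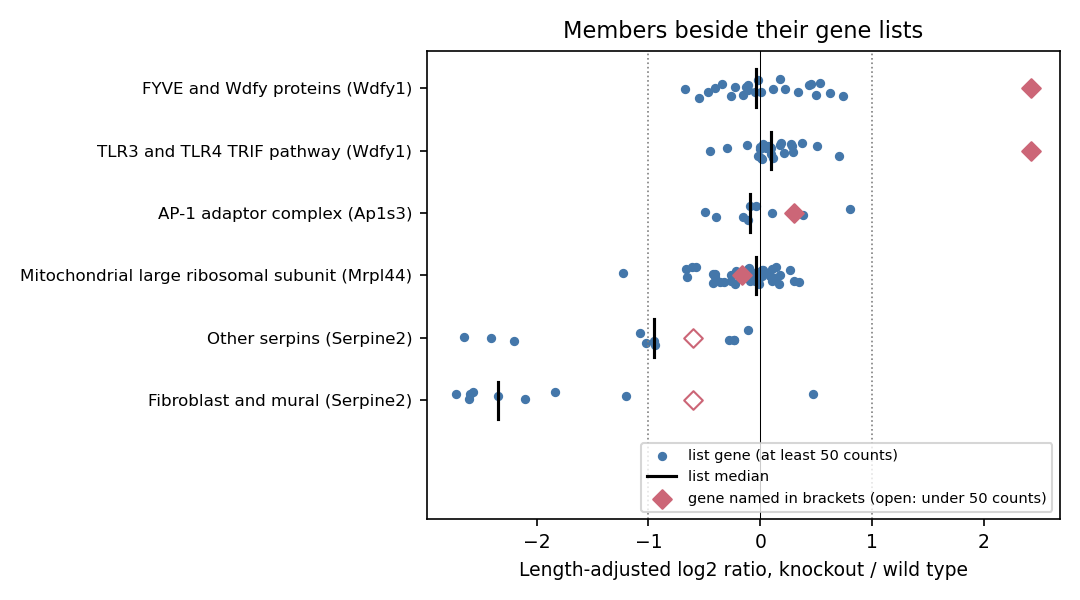
Length-adjusted log2 ratios of knockout over wild type (horizontal axis) for the genes with at least 50 counts in 6 gene lists (rows), with list medians as black lines and the gene named in brackets as a red diamond, open for Serpine2 with under 50 counts. Dotted lines mark 2-fold. Wdfy1, which was chosen for its ratio, lies at 2.42 to the right of every gene of its 2 lists, while Ap1s3 and Mrpl44 lie among theirs.

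Genes with a ratio and a level like those of Wdfy1 were sought among 3718 tested genes whose mean scaled count was within 2-fold of its own. By the length-adjusted log2 ratio over the 2 libraries, the 5 nearest were Il1b at 2.41, Tgtp1 at 2.52, Calhm6 at 2.14, Fpr2 at 2.92 and Cxcl10 at 3.24, against 2.42 for Wdfy1. That value was taken at the mean length of Wdfy1, and with the trend at its long transcript it was 2.11. Il1b is an inflammatory cytokine, Tgtp1 an interferon-inducible GTPase, Fpr2 a receptor for formyl peptides and Cxcl10 a chemokine. With 2 libraries such likeness is a match of 1 ratio.

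Wdfy1 has been named among genes whose RNA level differs between C57BL/6 substrains. A few other genes said to differ between substrains, not all of them in RNA level, were looked up. Of 6 such genes 4 were tested, 1 was at least 2-fold higher in the knockout library and 0 lower, beside 6.05% and 1.74% of all genes. After length adjustment 0 of 4 passed 2-fold, beside 2.14% higher and 1.9% lower among all genes tested. Nnt, the mitochondrial transhydrogenase whose gene lacks several exons in C57BL/6J, had 75 and 191 counts, 2.18-fold higher (1.66 to 2.89). Its length-adjusted log2 ratio was 0.85. Entpd4, a nucleotide-cleaving enzyme, had 130 and 247 counts, 1.63-fold higher (1.31 to 2.03), with a length-adjusted log2 ratio of 0.65. Ide, insulin-degrading enzyme, had 206 and 322 counts, 1.34-fold higher (1.12 to 1.61), with a log2 ratio of 0.42, or -0.0010 when length-adjusted. Cyfip2, an actin regulator, had 262 and 432 counts, with a log2 ratio of 0.50, or -0.12 when length-adjusted. The labels give C57BL/6 for both genotypes and no substrain, and the part of strain background in the Wdfy1 ratio was not tested.

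Markers of the cells themselves were checked as well. All 12 macrophage markers were listed in both libraries, with summed FPKM of 20984 and 20062, and 2 were at least 2-fold higher. Mertk, a receptor for dying cells, was 1 of the 2, at 253 and 694 counts. Of the 12 macrophage markers, 8 had a log2 ratio above 0 and the others did not. Their median was 0.44, or 0.51 after length adjustment, and the lowest was Cd68 at -0.70. The 12 T and NK cell markers had summed FPKM of 158 and 299, and 7 were tested. Of the 7, 3 passed 2-fold upward and 0 downward, beside the same 6.05% and 1.74% of all genes tested. Of 8 dendritic cell markers 4 were listed in wild type and 6 in knockout, with summed FPKM of 3.96 and 6.42, and 1 was tested, Clec9a, which passed the minimum only in knockout, at 13 and 74 counts. Flt3 and Siglech were listed in neither. Of 6 B cell markers 4 were listed and 0 tested, with summed FPKM of 1.40 and 2.51. Of 11 epithelial markers 7 were listed in wild type and 6 in knockout, with summed FPKM of 5.64 and 1.22 and with Krt5, Krt14, Cldn4 and Esrp1 in neither. The 1 epithelial marker tested, Krt19, which passed the minimum only in wild type, had 67 and 4 counts. Of 7 mesothelial markers 6 were listed in wild type and 1 in knockout, with summed FPKM of 0.88 and 0.08. These sums of deposited FPKM carry no TMM factor, and most B cell, dendritic, epithelial and mesothelial markers were near the limit of detection. The part of these cell types in the Wdfy1 ratio was not tested.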

How the data were processed

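Per the labels' protocols, a BGISEQ-500 instrument read RNA of 2 libraries. The deposited files give, per Entrez gene and per the file headers, transcript length, an estimated count and FPKM, which the authors scaled to length and mapped fragments. The submitters' processing notes list HISAT2, Bowtie2, RSEM and mm10 and give no role for any. Estimated counts, as deposited, were rounded. The TMM factors used to scale them were 0.921 (wild type) and 1.09 (knockout), computed by edgeR 4.0.16 under R 4.3.3. A gene missing from a file was given 0 counts. Symbols came from RefSeq for GRCm38.p6, which matched 15561 of 15605 identifiers.

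Log2 ratios used a pseudocount of 1, a minimum of 50 counts in the higher library and a threshold of 2-fold, with no test, since each group had 1 library. The length trend was a lowess fit with a span of 0.3. On simulated data, of 9302 genes tested, 200 of 200 genes changed 3-fold or 4-fold and 1 of 9102 others passed 2-fold. The simulated counts were Poisson draws around a shared mean, without replicate variance or length trend, and only genes with higher counts were changed. This checks the computation and gives no error rate for the real libraries. The 4 genes and the lists were chosen with earlier results of these data known. Named genes were the 4 genes, all tested within 2 Mb, list members past 2-fold or among the 3 most abundant of their list, and the 5 nearest in ratio, and some genes that this rule names are not reported here. Farther genes past 2-fold in the 5 Mb window and others named beside a list for their function were chosen after their values were seen. Alternatives were DESeq2 1.42.0 size factors, library totals, median centring, FPKM plus 0.1, pseudocounts of 0.5 and 5, minimums of 10, 200 and no counts, thinning, length adjustment, other thresholds and other windows. Other steps ran in Python 3.11.15 (scipy 1.17.1, statsmodels 0.14.6).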

Additional observations from a re-analysis of the deposited data

How the results depend on the processing

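The log2 ratio of Wdfy1 was above 0 under every alternative run. It was 2.07 with deposited FPKM and, in settings chosen after seeing the data, 2.11 with the length trend taken at the long transcript and 0.82 with the short transcript alone. The ratios of Ap1s3, Mrpl44 and Serpine2 and the median of the 5 Mb window kept within their counting interval or spread under the alternatives run, though the sign of the window's median turned with a minimum of 200 counts and a window of 10 Mb, at -0.07 and -0.01. Ap1s3 and Serpine2 have no value with a minimum of 200 counts. Scaling by library totals, chosen for intervals after seeing the data, gave Mrpl44 an interval that includes 1. Genes at least 2-fold higher and lower in the knockout library numbered 936 and 102 with FPKM, 1036 and 107 with library totals, 921 and 436 with a minimum of 10 counts, 273 and 67 with 200, and 1458 and 1531 with none. The numbers past 1.5-fold were 1562 and 607, and past 4-fold 40 and 45. Length adjustment left 203 higher. Effects of scaling and length follow from their construction, and the cause of other shifts was not tested. No paired analysis was possible because each group had 1 library.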

Other observations

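The genes whose mean transcript length differed more than that of Wdfy1 were named after their values were seen. Ahnak, which encodes a giant scaffold protein, had a mean length of 3279 bases in wild type and 9375 in knockout. The others were Nemp1, a nuclear envelope protein gene, at 3176 and 5278 bases, Msi2, an RNA-binding protein gene, at 3754 and 5885, and 6430548M08Rik at 3629 and 5535. Their log2 count ratios were 1.30, 0.52, 0.75 and 0.77, all below the 2.44 of Wdfy1, which was chosen for its ratio. Lengths could be resolved for 313 genes with 2 transcripts. Of these, 3, Wdfy1 included, had a long share that differed by at least 29.9 percentage points, the difference of Wdfy1. In all 3 the long share was higher in knockout.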
